A study of Debaryomyces hansenii with 6 samples.

Results

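Among the 6320 genes on arrays of the salt-tolerant yeast Debaryomyces hansenii, 32 were lower than in the control after 0.5 h in 2 M NaCl and had returned, on average, to about the control level by 6 h. They were chosen by their measured values. A member had a mean log2 ratio of stressed over control RNA of -0.4 or lower at 0.5 h, a negative ratio on both 0.5 h arrays, and a mean log2 ratio above -0.15 at 6 h. The first and second of these conditions were met by 246 genes, so the members were 13.0% of the genes lowered early, and the other 214 were at or below -0.15 at 6 h. The values at 0.5 and 6 h are therefore a description of the choice and were not tested. The 3 h arrays were not used in the choice, though the test at 3 h takes its spread from all 6 arrays.

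The stressed cells had been grown in the rich medium YPD to early log phase, given 2 M NaCl, and collected after 0.5, 3 or 6 h. The control cells came from the same kind of culture and were collected at time 0, before salt. Each time had 2 two-colour arrays, one for each of 2 biological replicates, with the dyes swapped between them. Replicate 1 is the array with Cy5 on the RNA of stressed cells, and replicate 2 the one with Cy3 on it. The labels give no strain, no unsalted culture of a later time, and no statement on whether arrays of different times shared their time-0 RNA. Salt and time in culture cannot be told apart, and with a shared control the 3 h ratios would not be independent of the choice.

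In Saccharomyces cerevisiae, where hyperosmotic shock is best known, water leaves the cell at once, the HOG kinase pathway is activated and glycerol is accumulated to restore turgor. Growth-related transcripts, among them those for ribosomal proteins and ribosome assembly factors, are lowered in the first phase and return once cells have adapted. D. hansenii is known for growth at high salt and for accumulating glycerol and tolerating sodium. The array files describe every gene as unknown, and the reference table gives locus names only. No function can therefore be given to any member, and the genes are ordered below by the course of their ratios. A locus name was found for 27 of the 32 members, and the other 5 are known by their RefSeq transcript identifier.

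Probes well above background made up 76.4% to 91.9% for stressed RNA and 62.4% to 93.4% for control RNA on the 6 arrays. The slope of observed against stated log ratios of the spike-in transcripts was 0.295 on the 3 h array of replicate 1, against 0.788 to 0.926 on the other 5 arrays. The part of this in the 3 h ratios was not tested, and the 3 h results are also given without that array. Of the 32 members, 27 were well above background on both probes in all channels of all arrays, no member was dim in a whole group and none was saturated. With 2 arrays a time, their number sets the precision of a ratio.

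The members had a median log2 ratio of -0.51 at 0.5 h. The range ran from -2.86 to -0.40, while the median over all genes was -0.0024. Both arrays lay at -0.4 or lower for 13 of the 32 members. For the other 19, 1 array was at -0.4 or lower and the other was not. The median SD between the arrays of a member was 0.24 at 0.5 h, against 0.12 over all genes.

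**Figure D1:**
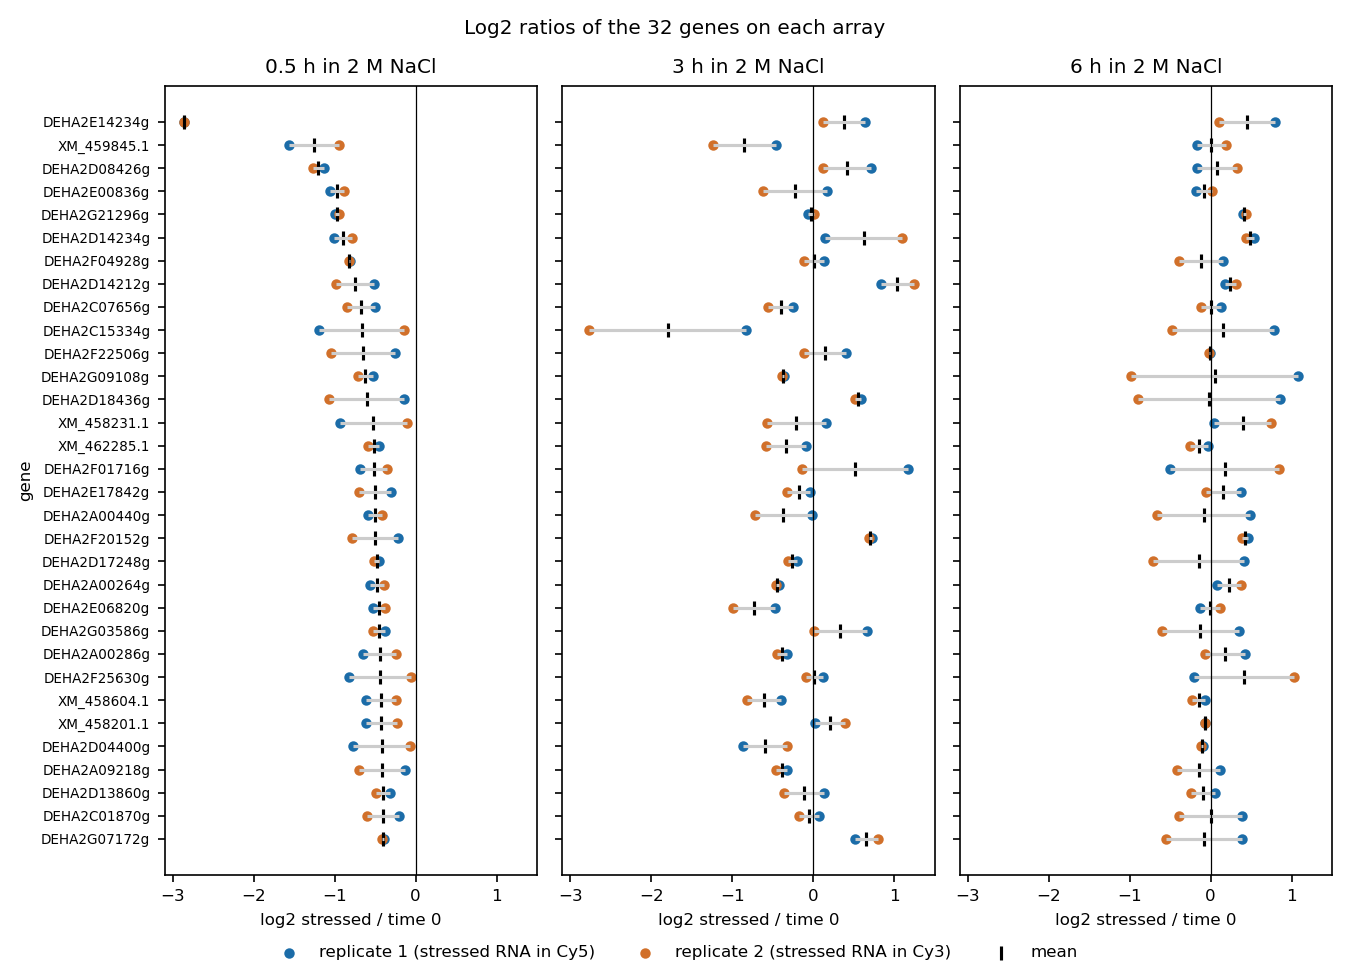
Log2 ratio of stressed over time-0 RNA (horizontal axis) for each of the 32 genes (rows, ordered by the 0.5 h mean) at 0.5, 3 and 6 h. Blue and orange points are replicates 1 and 2, and black ticks are their means. DEHA2E14234g stands far below the rest at 0.5 h, and at 6 h many pairs of points lie on both sides of 0.

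DEHA2E14234g had the lowest 0.5 h ratio of all 6320 genes. Its log2 ratios at 0.5 h were -2.86 and -2.87 on the arrays of replicates 1 and 2, so stressed RNA was 7.28-fold lower than the control. The normalized signals behind them, which include an offset of 50, were 290.4 and 279.7 in stressed RNA, against 2111 and 2039 in the control. Both arrays gave nearly the same value, and so did both probes of the gene, at -2.82 and -2.90.

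At 3 h the log2 ratios of DEHA2E14234g were 0.64 and 0.12. Its signals were then 1969 and 4714 in stressed RNA, against 1268 and 4337 in the control. The mean of 0.38 ± 0.36 (SD, n = 2) did not pass the test at 3 h, with an adjusted p of 0.264 in limma. With arrays centred on their median in place of loess, this 3 h mean was -0.17. At 6 h the log2 ratios were 0.79 and 0.10, so all 4 later values lay above the control and far above both 0.5 h values.

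The second lowest member at 0.5 h was a gene without a locus name, XM_459845.1, which is named here after its values were seen. Its log2 ratios at 0.5 h were -1.57 and -0.95, at 3 h -0.46 and -1.24, and at 6 h -0.17 and 0.19. It was thus low on all 4 arrays of the earlier times and on either side of 0 at 6 h. At 3 h its mean was -0.85 ± 0.56 (SD, n = 2) with an adjusted p of 0.0768 in limma, which did not pass.

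DEHA2D08426g had log2 ratios of -1.14 and -1.27 at 0.5 h, or 2.30-fold lower in stressed RNA. Its ratios were 0.72 and 0.12 at 3 h, and -0.16 and 0.32 at 6 h. The arrays agreed in sign at 0.5 and 3 h and not at 6 h.

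DEHA2E00836g had log2 ratios of -1.06 and -0.89 at 0.5 h, 0.17 and -0.62 at 3 h, and -0.18 and 0.02 at 6 h. DEHA2G21296g had a mean of -0.97 ± 0.04 (SD, n = 2) at 0.5 h and ratios of -0.06 and 0.02 at 3 h, and 0.40 and 0.43 at 6 h. In DEHA2G21296g the replicates lay closer together than in most members at each time, and the mean was near 0 at 3 h and above it at 6 h. DEHA2F04928g also had closely matching arrays at 0.5 h, at -0.81 and -0.83, but its 6 h ratios were 0.15 and -0.39.

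DEHA2C07656g had log2 ratios of -0.50 and -0.85 at 0.5 h, -0.25 and -0.56 at 3 h, and 0.13 and -0.12 at 6 h. DEHA2F22506g had -0.26 and -1.05 at 0.5 h, 0.41 and -0.12 at 3 h, and -0.0029 and -0.02 at 6 h. DEHA2D18436g had -0.14 and -1.07 at 0.5 h, so that only the array of replicate 2 showed a large difference.

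Near the early threshold, DEHA2G07172g and DEHA2C01870g were the last named loci inside, with 0.5 h means of -0.402 and -0.403. DEHA2D10120g and DEHA2G17050g were the first outside, at -0.394 and -0.388. Near the late threshold, DEHA2A09218g and DEHA2D17248g were just inside, with 6 h means of -0.148 and -0.147, and DEHA2E01584g and DEHA2F25652g just outside, at -0.151 and -0.160. The distances to each threshold are small beside the median SD between the arrays of a member, which was 0.24 at 0.5 h and 0.33 at 6 h.

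The 3 h arrays, which the choice did not use, show where the members stood between the early and the late time. The members had a median log2 ratio of -0.15 at 3 h, against -0.0043 over all genes, and ranged from -1.80 to 1.04. This median was -0.32 without the 3 h array of replicate 1, 0.05 without that of replicate 2, and -0.35 with median centring in place of loess, so neither its size nor its sign is settled. At 3 h 7 members were still at -0.4 or lower (21.9%, against 11.0% of all genes), 7 were at 0.4 or higher (21.9%, against 13.8%) and 18 lay between. Of the other 214 genes lowered early, whose median was -0.53 at 3 h, 63.1% were at -0.4 or lower and 4.21% at 0.4 or higher. This difference between the members and the other early genes was not tested.

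In limma, 3 members passed at an adjusted p under 0.05 at 3 h, which is 9.38% of them, beside 5.46% of all genes tested. Of these, 2 were higher (6.25% of members, 3.43% of all genes) and 1 was lower (3.12% of members, 2.03% of all genes). Counts this small are near the background and are not a result about the members as a group. At an unadjusted p under 0.05 there were 11 members (34.4%), beside 27.4% of all genes. The 3 called genes follow.

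DEHA2D14212g rose at 3 h. Its log2 ratios were 0.83 and 1.24, a mean of 1.04 ± 0.29 (SD, n = 2) or 2.05-fold, and limma gave it an adjusted p of 0.0272. Its signals were 876 and 1837 in stressed RNA, against 491 and 777 in the control. At 0.5 h its ratios had been -0.51 and -0.99, and at 6 h they were 0.18 and 0.31, so both arrays were below the control early, well above it at 3 h and slightly above it at 6 h.

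DEHA2F20152g rose as well, with 3 h log2 ratios of 0.72 and 0.69 and a mean of 0.71 ± 0.02 (SD, n = 2), or 1.63-fold. Its adjusted p of 0.0496 in limma was just under the threshold. The 0.5 h ratios were -0.21 and -0.79 and the 6 h ratios 0.46 and 0.39. All 4 later values were above the control.

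DEHA2E06820g was below the control at 3 h. Its log2 ratios were -0.47 and -0.98, a mean of -0.73 ± 0.36 (SD, n = 2) or 1.66-fold lower, and limma gave it an adjusted p of 0.0467. They had been -0.53 and -0.38 at 0.5 h, so only replicate 2 was lower at 3 h than at 0.5 h. At 6 h they were -0.13 and 0.12. This is a dim gene, with signals of 71.1 and 104 in stressed RNA, against 103 and 136 in the control at 0.5 h, and neither of its probes was well above background in the stressed channel of the 0.5 h array of replicate 1.

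These calls rest on the processing and on the spread pooled over all 6 arrays, among them the 0.5 and 6 h arrays that the choice used. The 3 h p-values and the count of members called are therefore not independent of the choice. In DEHA2G09108g the SD between the 3 h arrays was 0.01, while the standard error of its 3 h mean in limma was 0.42. Of 15 alternative settings the call of DEHA2D14212g ended in 10 and that of DEHA2F20152g in 12, and of 14 settings that of DEHA2E06820g ended in 10, with the sign kept in each. Without the 3 h array of replicate 1, the array with the low spike-in slope, 6 members passed in limma (18.8%, beside 16% of all genes), where the lone 3 h array is assumed to vary like those of the other times. Without that of replicate 2 no member passed, beside 0.459% of all genes, and 8 had an unadjusted p under 0.05 (25%, beside 12.8%). With either 0.5 h array left out, no member passed, beside 1.12% of all genes, and 11 had an unadjusted p under 0.05 (34.4%, beside 23.2%). With either 6 h array left out, no member passed, beside 2.23% of all genes, and 13 had an unadjusted p under 0.05 (40.6%, beside 24%).

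**Figure D2:**
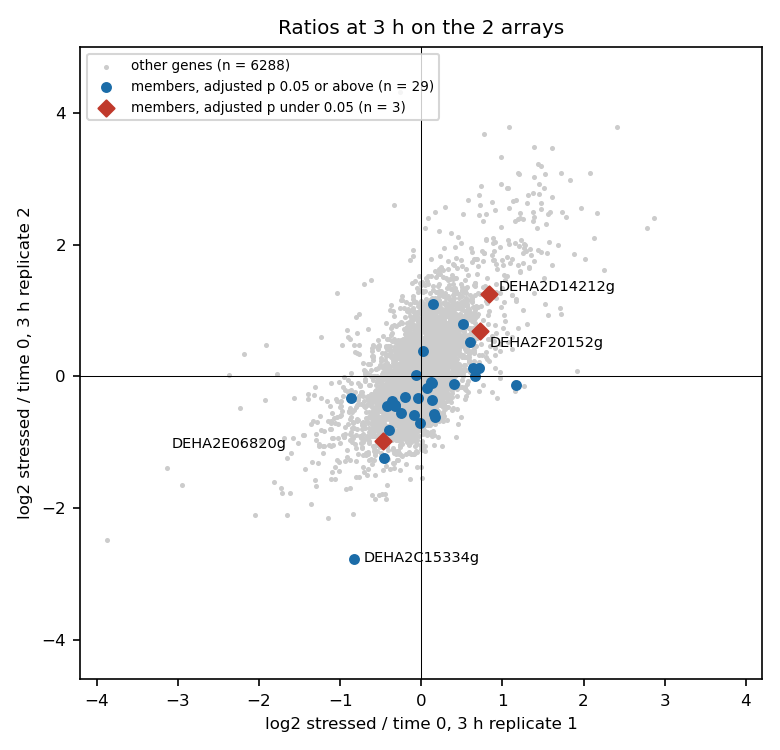
Log2 ratio of stressed over time-0 RNA at 3 h on the array of replicate 1 (horizontal axis) and of replicate 2 (vertical axis). Grey points are the genes that are not members, blue circles the 29 members that did not pass and red diamonds the 3 that did. The members lie on both sides of 0, and DEHA2C15334g lies lowest, mainly by replicate 2.

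By sign, 9 members were above the control on both 3 h arrays, 14 were below it on both and 9 had opposite signs. The 9 above it had 3 h means from 0.21 to 1.04 with a median of 0.56. Besides DEHA2D14212g, DEHA2F20152g, DEHA2E14234g and DEHA2D08426g, they included DEHA2G07172g, with 3 h ratios of 0.51 and 0.80, and DEHA2D14234g, with 0.14 and 1.10. The means of these last 2 did not pass, with adjusted p-values of 0.113 and 0.129 in limma. Without the 3 h array of replicate 1 the ratio of DEHA2D14234g was 1.10, and without that of replicate 2 it was 0.14. DEHA2D18436g belonged here too, with 0.60 and 0.52.

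The 14 members below the control on both 3 h arrays had means from -1.80 to -0.18 with a median of -0.40. Their median at 0.5 h was -0.49. The lowest was DEHA2C15334g, with 3 h log2 ratios of -0.83 and -2.77. Its mean of -1.80 ± 1.37 (SD, n = 2) did not pass (adjusted p = 0.0819, limma). Without the array of replicate 1 the ratio was -2.77, and without that of replicate 2 it was -0.83. On that array of replicate 2 its signal was 665 in stressed RNA, against 4540 in the control.

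DEHA2C15334g also had the widest gap between its 0.5 h arrays, with -1.19 and -0.14, and ratios of 0.78 and -0.48 at 6 h. It was below the control on all arrays but the 6 h array of replicate 1. It was also the 1 member with a probe that shares a run of 20 bases with a probe of another gene, DEHA2D13288g, whose 3 h mean was -0.22. For comparison, 1.85% of all genes share such a run, and no member shares a run of 30 bases.

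DEHA2D04400g had 3 h ratios of -0.86 and -0.33 and an adjusted p of 0.116 in limma. With the replicate number as a block in the fit it passed with an adjusted p of 0.0486. The block is the same split of arrays as the dye orientation, and with it 4 members passed, beside 13.6% of all genes. Of them, 2 were higher, beside 7.91% of all genes, and 2 lower, beside 5.71%. DEHA2A00264g had closely matching 3 h ratios of -0.43 and -0.46 and an adjusted p of 0.0786 in limma, which did not pass.

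The 9 members with opposite signs at 3 h had means from -0.23 to 0.52 with a median of -0.02, and none passed. The widest of them was DEHA2F01716g, named here after its values were seen, with 3 h ratios of 1.17 and -0.13. Its 6 h ratios, -0.50 and 0.85, were opposite in the other sense.

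**Figure D3:**
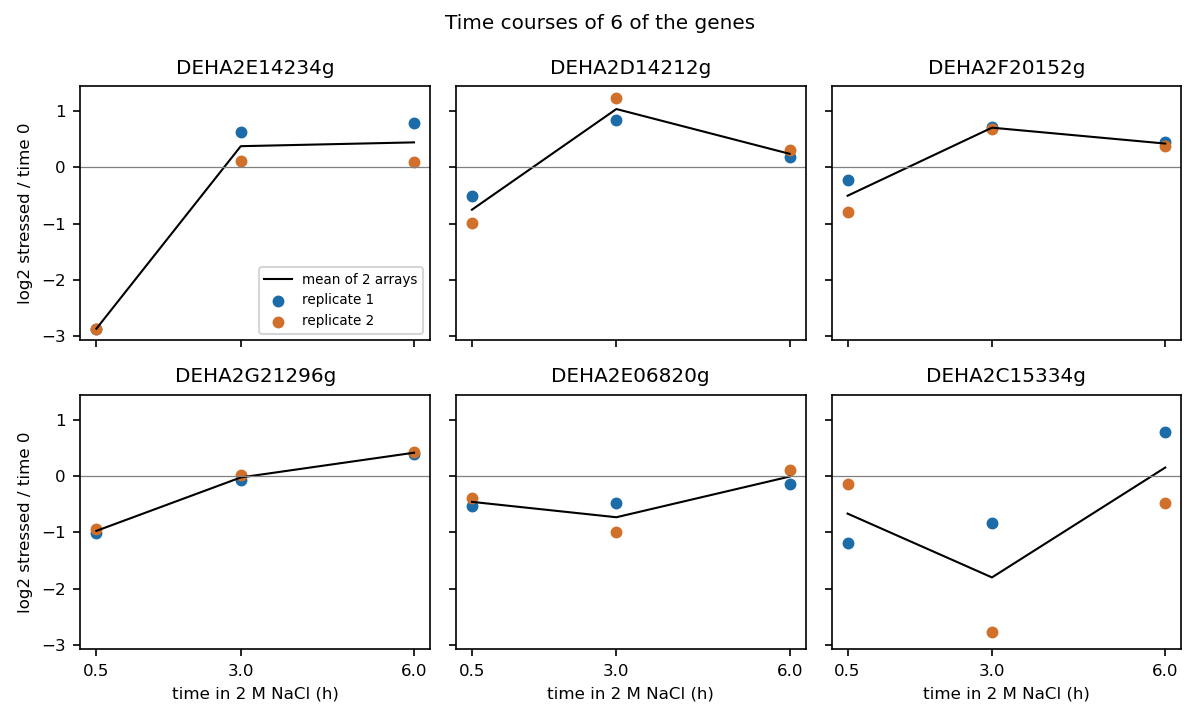
Log2 ratio of stressed over time-0 RNA (vertical axis) against time in 2 M NaCl (horizontal axis, h) for 6 members. Blue and orange points are replicates 1 and 2, and the line joins their means. DEHA2E14234g, DEHA2D14212g, DEHA2F20152g and DEHA2G21296g have means above 0 at 6 h. The mean of DEHA2E06820g is lowest at 3 h, by replicate 2, and the replicates of DEHA2C15334g lie far apart.

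The label of a return by 6 h holds for the mean of the arrays and less often for each array. At 6 h the members had a median log2 ratio of 0.0030 and ranged from -0.15 to 0.48. Both 6 h arrays were above -0.15 for 14 of the 32 members. For the other 18, 1 array was at or below -0.15 and the other array lifted the mean. The ratios had opposite signs in 20 members (62.5%), against 29.8% of all genes. The 6 h arrays were used in the choice, so these shares are a description. At 3 h, 28.1% of members and 34.2% of all genes had opposite signs.

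The widest 6 h gap was that of DEHA2G09108g, with log2 ratios of 1.08 and -0.99. DEHA2D18436g followed with 0.85 and -0.89, although its 3 h ratios differed little. For these the 6 h mean near 0 is an average of a higher and a lower value, and a return to the control level is not shown by either array. The median SD between the arrays of a member was 0.33 at 6 h, against 0.13 over all genes. On the 6 h arrays 22 of the 32 members were lower in replicate 2 than in replicate 1, and on the 3 h arrays 26 were. The same counts were not made over all genes, so they are not read as a trait of the members. Replicate and dye orientation cannot be told apart in these counts.

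At 6 h 7 members were positive on both arrays. Among them were DEHA2D14234g with 0.53 and 0.44, DEHA2F20152g with 0.46 and 0.39, DEHA2G21296g with 0.40 and 0.43 and DEHA2E14234g with 0.79 and 0.10. The 5 members with 6 h means of 0.4 or higher were these 4 and DEHA2F25630g, whose ratios were -0.20 and 1.04. DEHA2F25630g was well above background in 6 of its 12 control values, and in all 12 of its stressed values.

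Which genes belong to the set depended on the processing. Under 5 other ways of processing the same spots (no background correction, median centring without loess, the scanner software's processed signals, the authors' deposited log2 ratios, and the brighter probe of each gene), 10 members met the same rule in all 5. They were DEHA2E14234g, XM_459845.1, DEHA2D08426g, DEHA2E00836g, DEHA2G21296g, DEHA2D14234g, DEHA2D14212g, DEHA2C07656g, DEHA2F22506g and DEHA2D18436g. A further 10 met it in 4 of the 5, and 2 members, DEHA2A09218g and DEHA2C01870g, in none. These counts concern the arrays that the choice used.

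Both probes of each member gave a 0.5 h mean below 0, and they differed by at most 0.25 on the log2 scale. At 3 h the probes had the same sign in 28 of 32 members and differed by at most 0.49. The choice used the mean of both probes at 0.5 h, so the 0.5 h figures are a description. The same figures were not taken over all genes. The probes of a gene read the same RNA, so their agreement concerns the spots and not the cultures.

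The members were also compared for place and length. By the locus order of assembly ASM644v2, 7 of the 27 named members lie on chromosome D, 5 on F, 4 each on A, E and G, 3 on C and none on B. Of the array loci, 10.2% lie on chromosome A, 11.7% on B, 12.8% on C and 13.2% on D. Chromosomes E, F and G hold 16.4%, 18.7% and 17.0%. With 27 named members, these counts are not a result about place. The genes ranged in length from 348 to 8409 bases, with a median of 1359 bases, against 1176 bases for all array loci with a name. The median GC content of their probes was 39.6%, against 38.3% for all genes.

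The named members included 2 pairs of neighbours. DEHA2D14212g and DEHA2D14234g are next to each other on chromosome D. Both were low at 0.5 h, with means of -0.75 and -0.90, and above the control at 3 h, with 1.04 and 0.62, and at 6 h, with 0.24 and 0.48. The loci directly on either side did not share the early value, with 0.5 h means of 0.24 for DEHA2D14190g and 0.39 for DEHA2D14256g. Next beyond them, DEHA2D14168g was low, with means of -0.57 at 0.5 h, -0.58 at 3 h and -1.02 at 6 h. DEHA2D14278g, on the other side, had 0.09 at 0.5 h. The later values were not limited to the pair. DEHA2D14256g was above the control as well, with means of 0.76 at 3 h and 0.86 at 6 h, while DEHA2D14190g had -0.07 and 0.07.

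DEHA2A00264g and DEHA2A00286g are the 8th and 9th loci from an end of chromosome A. Their means were -0.48 and -0.45 at 0.5 h, -0.44 and -0.38 at 3 h, and 0.23 and 0.18 at 6 h. Both means were low at 0.5 and 3 h and above 0 at 6 h, and those at 0.5 and 6 h were part of the choice. At 6 h the ratios of DEHA2A00264g were 0.08 and 0.37, while those of DEHA2A00286g had opposite signs, at 0.42 and -0.07. The flanking loci DEHA2A00242g and DEHA2A00308g had 0.5 h means of -0.10 and -0.09. At 3 h their means were -0.54 and -0.11, so a low 3 h value was found on 1 side of the pair as well. DEHA2A00440g, the 16th locus of the same end, had means of -0.50, -0.37 and -0.09. The pair and DEHA2A00440g were the 3 members within 20 loci of a chromosome end, and they lie at 1 end. They are 11.1% of the named members, against 4.11% of all array loci. With 3 members, a pair of neighbours among them, this share is not a result about chromosome ends. DEHA2A00264g, DEHA2A00286g and DEHA2A00440g met the rule in 4, 2 and 3 of the 5 other ways of processing.

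Over all named members, 42 adjacent array loci were not members. Their median 0.5 h mean was -0.04, and 4 of the 42 were at -0.4 or lower, beside 3.96% of all genes. None of the 42 passed at 3 h in limma, beside 5.46% of all genes tested. With so few loci, these counts are not a result about the neighbours. Since members were chosen by their 0.5 h values, these early values of their neighbours are a description.

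**Figure D4:**
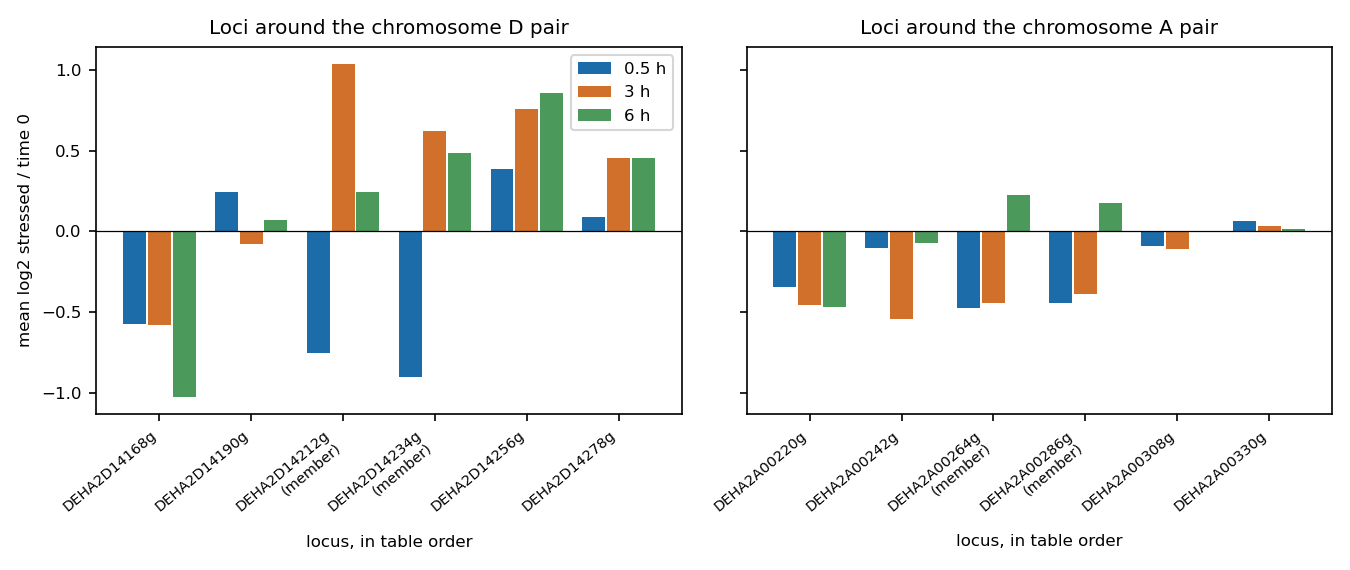
Mean log2 ratio of stressed over time-0 RNA (vertical axis) at 0.5, 3 and 6 h (bars, n = 2 arrays each) for the loci around both neighbouring pairs, in the order of the reference table. In the chromosome D pair the 0.5 h bars of both members point down and the 3 and 6 h bars up, while the loci on either side have 0.5 h means of 0.24 and 0.39. The 3 and 6 h bars of DEHA2D14256g also point up, at 0.76 and 0.86, and the 0.5 h bar of DEHA2D14168g also points down, at -0.57.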

How the data were processed

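Each of 6 two-colour Agilent arrays compared stressed with time-0 RNA. The scanner files hold intensities, which per the file headers came from Feature Extraction 9.1.3.1, and per the labels the authors worked with the medians. A deposited table holds the authors' log2 ratios, and limma is the tool in the submitters' processing notes. Its log2 scale and direction were found by setting it against the scanner files (r of 0.988 or above with loess and no background correction), and its column medians were -0.00121, 0.00381, 0.0106, 0.00289, -0.0109 and 0.00272. The sources used here do not state how it was normalized or centred. Well-above-background values are other scanner flags deposited by the authors.

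In limma 3.58.1 under R 4.3.3, median signals were corrected with normexp (offset 50), then loess was fitted array by array, giving control spots weight 0. A total of 18 outlier spot values were left out, none of them in members. Ratios were turned to stressed over control and averaged over the 2 probes of a gene. All 6320 genes were tested in 1 fit over 6 arrays with a coefficient per time (lmFit, eBayes, Benjamini-Hochberg over all genes). Replicate numbers follow the dye orientation. Between times, the deviations of arrays with the same number had correlations of 0.21, 0.31 and 0.35 over genes, and a fit with the number as a block is given as an alternative. Accessions were matched to locus names for 5348 of 6320 genes.

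Members and lists were chosen with earlier results of these data known. The rule for named genes took the named members with the 12 lowest 0.5 h means, those called at 3 h, the 4 highest and 4 lowest at 3 h, the 6 highest at 6 h, the 2 nearest each side of a threshold, the widest 0.5 h gap and neighbouring pairs. Other loci were named after their values were seen. Lists by description, promoter motifs and protein features were not run, since the tables used here hold none.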

Additional observations from a re-analysis of the deposited data

How the results depend on the processing

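The number of genes called at 3 h was 345 and depended strongly on the setting. It was 43 with no background correction, 117 with median centring without loess, 149 with processed signals, 31 with the deposited log2 ratios (26 higher and 5 lower, against 217 and 128) and 861 with a replicate block. With a trended and robust moderation limma called 0 genes, with 1793 at an unadjusted p under 0.05. Leaving out 1 array gave between 29 and 1013 genes, the extremes without replicate 2 and replicate 1 of 3 h. The number of members called, 3, was 0 with no background correction, median centring, processed signals, deposited ratios, or a trended and robust moderation, with 9 to 13 members at an unadjusted p under 0.05 in limma, and between 0 and 6 when 1 array was left out. It was 4 with the replicate block and 2 with the brighter probe, beside 861 and 364 genes. With filters on dim probes it was 3 of 32 members beside 362 of 5966 genes, or 2 of 27 beside 288 of 2847. At an unadjusted p under 0.05 in limma, members numbered 11 with no background correction and 11 with deposited ratios, beside 1464 and 1479 genes. They numbered 9 with median centring and 9 with processed signals, beside 1124 and 1461 genes. With the trended and robust moderation they were 13, beside 1793 of 6320 genes. The replicate numbers follow only the dye orientation, so the block was not taken as a pairing.

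The rule gave 316 genes with processed signals, 26 of them among the 32, 19 at an early threshold of -0.5 and 16 at a late threshold of 0. Leaving out 1 array gave between 22 and 105 genes. The other alternatives gave 22 to 42 genes, of which median centring shared 15 with the 32. The median 3 h log2 ratio of the members, -0.15, was -0.35 with median centring and between -0.32 and 0.05 when 1 array was left out, and lay between -0.17 and -0.05 under the other alternatives. Signs of the called members were kept under each. The causes were not tested.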
